A study of Mus musculus with 18 samples.

Results

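A set of 10 genes that mark the alveolar macrophage, or control its identity, was followed in whole lung of mice gavaged with a mixture of polycyclic aromatic hydrocarbons (PAHs). They were Marco, Mrc1, Itgax, Cd68, Chil3, Pparg, Fabp4, Fabp1, Ctsk and Krt79, out of 20660 genes that could be named on the array. They were chosen by name, and each array probe whose RefSeq accession maps to one of them was taken. A single probe was found for each of 9 genes, and no probe was matched to Cd68, whose expression is therefore not analysed here.

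Male Muta™Mouse animals, a lacZ-carrying transgenic strain for mutation testing, were about 12 weeks old and received the 4PAH-Mix (benzo[a]pyrene, BaP; benz[a]anthracene; benzo[b]fluoranthene; chrysene) in olive oil by daily gavage over 28 days. The vehicle group (5 mice, numbered 1 to 5) received olive oil alone, and every mouse of the series carried the transgene. The low dose was 12.5 (4 mice: 6, 7, 9 and 10), the medium dose 25 (5 mice, 11 to 15) and the high dose 50 mg BaP equivalents/kg-bw/day (4 mice: 16, 17, 18 and 20). Lungs were taken 72 h after the last dose, and RNA of random sections of lung in the Cy5 channel was hybridised beside a common reference, pooled RNA of 11 mouse cell lines, in the Cy3 channel, with 1 mouse per array.

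Alveolar macrophages live on the air side of the alveolus, where they clear inhaled particles, microbes and spent surfactant. They arise from fetal monocytes under GM-CSF and TGF-beta, signals that switch on the nuclear receptor PPARG, and PPARG in turn drives genes for lipid uptake, binding and breakdown. PAHs bind the aryl hydrocarbon receptor (AHR), a transcription factor that induces their own metabolism. Each value below is a log2 ratio, lung over reference RNA, for 1 probe in 1 mouse. A ratio can be compared between mice for the same probe, but not between probes. Because the RNA came from whole lung, fewer cells of a type and less RNA per cell cannot be told apart.

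The alveolar macrophage genes were detected in every group. In the lung channel, all 9 probes passed the scanner software's background test on all 18 arrays, and none was saturated. Other genes typical of these cells, such as Siglecf, Ear2, Car4 and Plet1, also passed on all 18 arrays, as did the surfactant genes Sftpc, Sftpa1 and Sftpb of the alveolar type 2 cell. Between 51.5% and 61.1% of all probes were well above background per array. For Mrc1 the reference channel was above background on only 3 arrays and for Fabp1 on 0, so those ratios rest on a dim denominator. The 3 slides each held all 4 groups, but a group always sat in the same column of the slide, so position on the slide and dose cannot be told apart. The AHR target Cyp1b1, which metabolises PAHs, rose at each dose (log2 fold change 0.85, 1.15 and 1.58; limma, adjusted p = 0.0295, 1.5e-04 and 3.6e-06), with no overlap between any dose group and vehicle. Among all probes 1.36%, 2.31% and 3.78% lay wholly above vehicle at the low, medium and high dose. Cyp1b1 was picked with its values known, and not all AHR targets rose at each dose. Cyp1a1 had -0.32, -0.44 and 1.07 and was called at no dose.

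The promoters of 4 members are shown, from 250 bases before to 50 bases after the RefSeq transcription start. Marco was taken because it had the largest difference between groups. Chil3, Mrc1 and Fabp1 were taken for their correlations over mice (r = 0.62 to 0.69). Those did not pass the adjustment (permutation tests, adjusted p = 0.069 for each pair). Capitals mark 2 kinds of motif searched on both strands, the PPAR half-site AGGTCA, which reads TGACCT where it lies on the opposite strand, and TATAAA, the core promoter motif bound by TBP. The sequences are RefSeq's for build GRCm38.p6, each read 5′ to 3′ along the gene's own strand. Marco lies on the reverse strand at chr1:120504975-120505274, Chil3 on the reverse strand at chr3:106167515-106167814, Mrc1 on the forward strand at chr2:14229164-14229463 and Fabp1 on the forward strand at chr6:71199629-71199928.
Marco: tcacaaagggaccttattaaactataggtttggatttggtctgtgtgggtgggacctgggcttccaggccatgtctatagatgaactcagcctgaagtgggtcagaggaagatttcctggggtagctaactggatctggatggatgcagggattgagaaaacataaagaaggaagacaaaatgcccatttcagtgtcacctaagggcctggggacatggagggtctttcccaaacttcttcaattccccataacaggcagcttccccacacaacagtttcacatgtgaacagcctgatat
Chil3: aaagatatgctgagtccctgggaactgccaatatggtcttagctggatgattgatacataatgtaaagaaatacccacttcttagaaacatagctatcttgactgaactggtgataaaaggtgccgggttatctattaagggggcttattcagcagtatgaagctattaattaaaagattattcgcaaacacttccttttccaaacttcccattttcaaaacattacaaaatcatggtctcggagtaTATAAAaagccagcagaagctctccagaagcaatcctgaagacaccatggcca
Mrc1: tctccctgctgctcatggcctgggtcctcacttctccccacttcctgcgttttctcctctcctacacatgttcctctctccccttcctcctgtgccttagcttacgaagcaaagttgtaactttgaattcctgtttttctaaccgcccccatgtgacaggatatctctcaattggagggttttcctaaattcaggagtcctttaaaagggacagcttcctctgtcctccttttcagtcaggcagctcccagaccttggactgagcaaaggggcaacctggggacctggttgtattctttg
Fabp1: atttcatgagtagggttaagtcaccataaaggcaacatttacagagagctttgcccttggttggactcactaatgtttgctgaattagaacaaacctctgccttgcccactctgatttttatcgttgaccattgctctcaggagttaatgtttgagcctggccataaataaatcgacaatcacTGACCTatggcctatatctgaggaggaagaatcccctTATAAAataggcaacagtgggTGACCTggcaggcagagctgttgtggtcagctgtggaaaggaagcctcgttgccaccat

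Fabp1 held 2 half-sites, beginning 67 and 9 bases before the start and both on the opposite strand, and a TATAAA 30 bases before the start. Chil3 held a TATAAA 3 bases before the annotated start, and neither motif was found in the Marco or Mrc1 window. Over the 11 promoters of 9 members (3 belong to Pparg; Cd68 is included, and no window was found for Fabp4) AGGTCA was present in 3, against 16.3% of 32851 promoters of the same length. GCGTG, the core of the AHR response element, was present in 2 of 11, in Itgax and in 1 Pparg promoter, against 32.4% of all promoters. An exact direct repeat of the half-site with 1 base between was in 0 of 11 and in 0.0396% of all promoters. Repeats with a mismatch in either copy were not searched, so whether a member holds a less exact PPAR element was not tested. The counts above are letter matches only, and binding was not measured.

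No member passed the test at any dose. To be called, a probe needed a limma p of 0.05 or less after Benjamini-Hochberg adjustment over 55681 probes and a change of 1.5-fold or more. At the low dose 0 of 9 members were called, against 0.0898% of all probes. At the medium dose 0 of 9 were called, against 0.726% of all probes, and at the high dose 0 of 9, against 1.2%. Between the high and the low dose 0 of 9 were called, against 0.0449% of all probes. At an unadjusted p under 0.05 there were 2 members at the low dose (Itgax and Ctsk, both lower), against 8.01% of all probes. Marco was the 1 such member at either higher dose, against 15.3% and 15.7% of all probes. At the high dose 5 members were above and 4 below vehicle, with a median log2 fold change of 0.08, where the median of all probes was 0. Of all probes 50.8% were above vehicle at that dose. At the low dose 3 of 9 were above (all probes, 51%), with a median of -0.05, and at the medium dose 5 of 9 (all probes, 51.3%), with a median of 0.05. The comparisons of the 3 doses with vehicle share the same 5 vehicle mice.

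**Figure D1:**
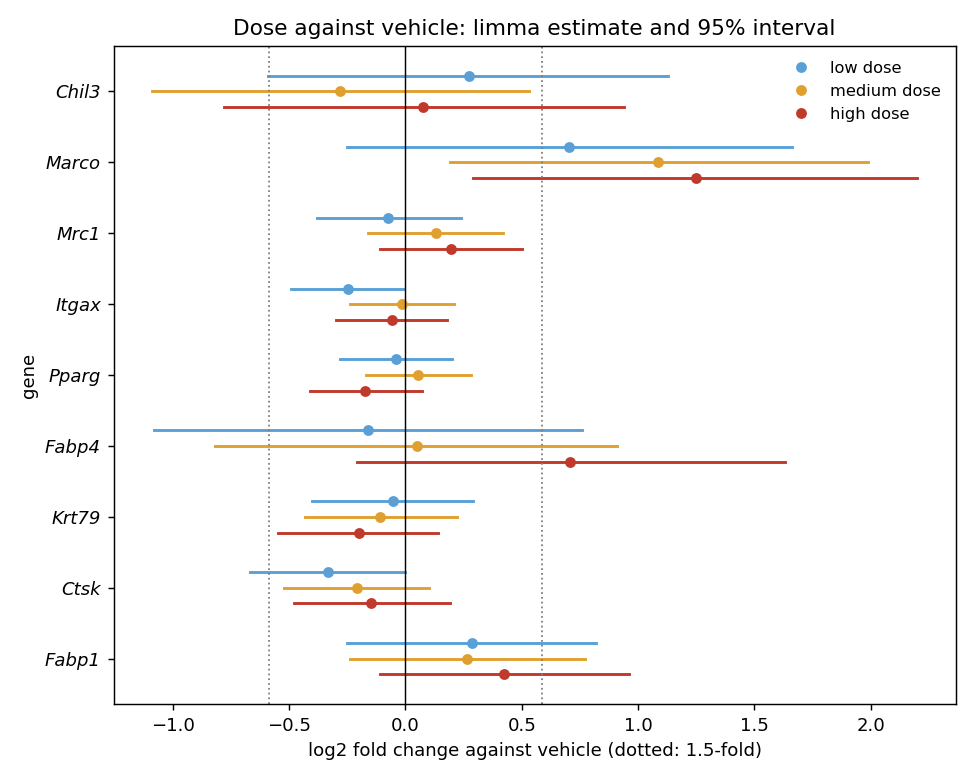
Log2 fold change of each member at the low, medium and high dose against vehicle (horizontal axis), with points for the limma estimate and lines for its 95% interval; dotted lines mark 1.5-fold. Marco has the highest estimates, 0.70, 1.09 and 1.25, and Marco, Fabp4 and Chil3 have the widest intervals.

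Marco, a class A scavenger receptor with which alveolar macrophages bind unopsonised particles and bacteria, had the highest fold changes of the 9. In vehicle mice 1 to 5 the log2 ratios were 2.69, 3.65, 6.26, 4.31 and 5.29. At the low dose they were 5.31, 5.02, 4.64 and 5.60, and at the medium dose 6.19, 5.25, 4.76, 5.47 and 5.95. The high-dose mice had 5.52, 5.57, 5.63 and 6.02. The vehicle mice were spread over an 11.86-fold range and the high-dose mice over a 1.41-fold range, and vehicle mouse 3 stood above all 13 dosed mice. All dosed mice were above the vehicle median of 4.31, yet every dose group overlapped vehicle.

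Marco's group means lay in the order of dose, at 4.44 ± 1.39 (SD, n = 5), 5.14 ± 0.41 (n = 4), 5.52 ± 0.57 (n = 5) and 5.69 ± 0.23 (n = 4). No neighbours in that order differed beyond their spread (two-sided exact permutation tests, p = 0.349, 0.302 and 0.635). Against vehicle the high dose was 2.38-fold higher (log2 fold change 1.25, SE 0.46, 95% interval 0.29 to 2.20), which did not pass the adjustment (limma, adjusted p = 0.152). The exact permutation p was 0.143, where the smallest possible for 4 against 5 mice is 0.0159. The medium dose gave 1.09 (SE 0.43, adjusted p = 0.204) and the low dose 0.70 (SE 0.46, adjusted p = 0.759). The outcome turned on vehicle mouse 3. Without that mouse Marco was called at the medium dose (log2 fold change 1.54, limma, adjusted p = 0.0222), and likewise in the high-dose group (1.70, adjusted p = 0.0138). Within the 3 slides the high-dose difference ran from 0.35 to 2.38, higher on all 3. Slide 3 set 1 dosed mouse against 1 vehicle mouse, and slide 2 set 1 against 2. How often other probes keep 1 sign on all 3 slides was not counted, for Marco or for the members below.

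Marco also varied between vehicle mice more than nearly any other probe. Its vehicle range of 3.57 log2 units was exceeded by 0.0251% of 55669 probes, for which the median range was 0.34. Chil3 came next among the members with 2.53 (0.101% of probes wider), followed by Fabp4 with 1.39 (0.559%) and Fabp1 with 1.07 (1.39%). Pparg was at the other end with 0.25, exceeded by 73.9% of probes.

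**Figure D2:**
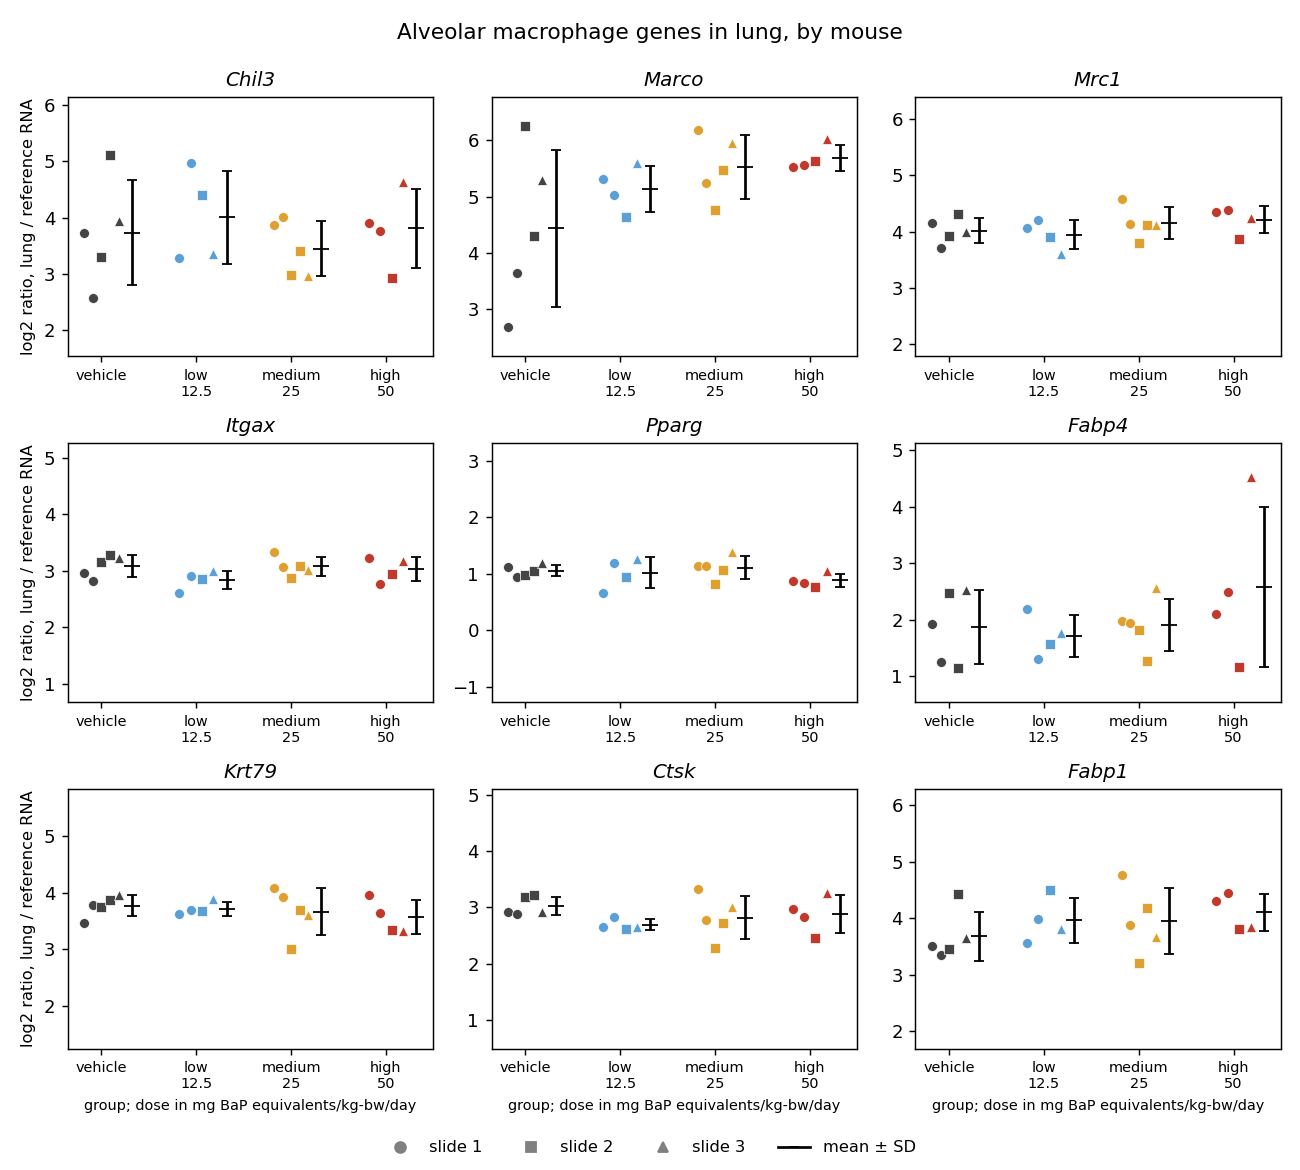
Log2 ratio of lung to reference RNA (vertical axis, 4.6 log2 units high in every panel) for each of the 9 measured members in each mouse, by dose group, with the slide as symbol and the group mean ± SD in black. Marco spans 2.69 to 6.26 in vehicle mice and 5.52 to 6.02 at the high dose, and 1 high-dose mouse stands apart in Fabp4.

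Mrc1, the mannose receptor CD206, and Itgax, the CD11c chain of complement receptor 4 that marks alveolar macrophages and dendritic cells in flow cytometry, both had overlapping groups at every dose. Mrc1 was 4.16, 3.71, 3.93, 4.31 and 3.99 in vehicle mice 1 to 5 and 4.36, 4.38, 3.88 and 4.24 in the high-dose mice. The low-dose mice had 4.07, 4.20, 3.90 and 3.60, and the medium-dose mice 4.58, 4.13, 3.80, 4.11 and 4.12. The high-dose log2 fold change of 0.20 had a 95% interval from -0.11 to 0.50 (limma, adjusted p = 0.605). It ran from 0.05 with Cy5 alone to 0.54 with the scanner software's ratios, beside the dim reference channel noted above.

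Itgax was 2.97, 2.82, 3.15, 3.28 and 3.23 in vehicle mice. The low-dose mice had 2.61, 2.91, 2.85 and 2.99, all below the vehicle median of 3.15, with only mouse 6 below all vehicle mice. The log2 fold change was -0.25 (SE 0.12, limma, adjusted p = 0.601; exact permutation p = 0.111), lower on all 3 slides. At the medium dose (3.32, 3.07, 2.88, 3.08 and 3.02) and the high dose (3.23, 2.77, 2.95 and 3.17) the groups lay over vehicle, with log2 fold changes of -0.01 and -0.06. For the high dose the 95% interval ran from -0.30 to 0.18, and median centring turned the estimate to 0.12.

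Chil3 (Ym1) is a chitinase-like protein that mouse alveolar macrophages make in large amounts. It was 3.72, 2.58, 3.31, 5.11 and 3.93 in vehicle mice 1 to 5, a 5.79-fold range. The low-dose mice had 3.29, 4.97, 4.40 and 3.35, the medium-dose mice 3.86, 4.01, 2.99, 3.41 and 2.96, and the high-dose mice 3.90, 3.76, 2.93 and 4.64. In each group high and low mice stood side by side, and no group stood apart. The log2 fold changes were 0.27, -0.28 and 0.08 (SE 0.41, 0.39 and 0.41; limma, adjusted p = 0.926, 0.83 and 0.964), and the high-dose interval, -0.78 to 0.94, covers both signs. Chil4 is a near-identical paralog, and whether the Chil3 probe also binds its transcript was not tested. The Chil4 probe gave a high-dose log2 fold change of 0.03.

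Pparg, the lipid-sensing nuclear receptor that sets alveolar macrophage identity, had the narrowest range of the 9 among vehicle mice, from a probe spotted 10 times per array. Vehicle mice had 1.11, 0.94, 0.98, 1.04 and 1.19, and the high-dose mice 0.86, 0.84, 0.77 and 1.06. Of the 4 high-dose mice 3 were below all vehicle mice, while mouse 20 lay among them. The low-dose mice (0.66, 1.19, 0.94 and 1.27) and the medium-dose mice (1.14, 1.13, 0.81, 1.07 and 1.38) spread to both sides. High-dose mice differed from vehicle by a log2 fold change of -0.17 (SE 0.12, 95% interval -0.41 to 0.07; limma, adjusted p = 0.536; exact permutation p = 0.0635), lower on all 3 slides by 0.14 to 0.24. With median centring in place of loess it was 0.03.

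Fabp4 and Fabp1 carry fatty acids in the cytoplasm. Fabp4 is a PPARG target of alveolar macrophages and of adipocytes, and Fabp1 is best known from liver and gut. Fabp4 was 1.93, 1.25, 2.46, 1.14 and 2.53 in vehicle mice, 2.19, 1.31, 1.57 and 1.75 at the low dose, and 1.97, 1.94, 1.82, 1.26 and 2.56 at the medium dose. The high-dose mice had 2.11, 2.49, 1.16 and 4.52, a 10.28-fold range. The 3 other high-dose mice lay within the vehicle range, and mouse 20 alone was above it. The high-dose log2 fold change was 0.71 (SE 0.44, 95% interval -0.21 to 1.63; limma, adjusted p = 0.491), and without mouse 20 it was 0.06.

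Adipoq and Retn, genes of fat cells, were high in the mouse in which Fabp4 was high. The adiponectin gene Adipoq was the nearest gene to Fabp4 among 14690, by the root mean square difference of log2 ratios from the vehicle mean over 18 mice (0.36, against a median of 0.80). Retn, Plin1, Cox8b and Adig followed with 0.38, 0.43, 0.48 and 0.51; these genes were looked up after the values of Fabp4 had been seen. In mouse 20 Adipoq was at 2.87 and Retn at 2.63, each the highest of all 18 mice. As a description, deviations of Fabp4 and Adipoq from their group means correlated with r = 0.91 (rho = 0.85, 18 mice) and with r = 0.80 without mouse 20. The mean change of 7 of the 8 adipocyte markers (Lep was below background on all arrays and left out, while Plin1 was above it on 10 arrays and Ucp1 on 2) ran from -0.50 to 0.60 in vehicle, -0.34 to -0.01 in low-dose, -0.93 to 0.60 in medium-dose and -0.60 to 1.79 in high-dose mice. At the high dose 6 of the 8 were above and 2 below vehicle, with log2 fold changes from -0.22 for Lipe to 1.32 for Ucp1. None of the 8 was called at any dose, and their part in the Fabp4 values was not tested.

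**Figure D3:**
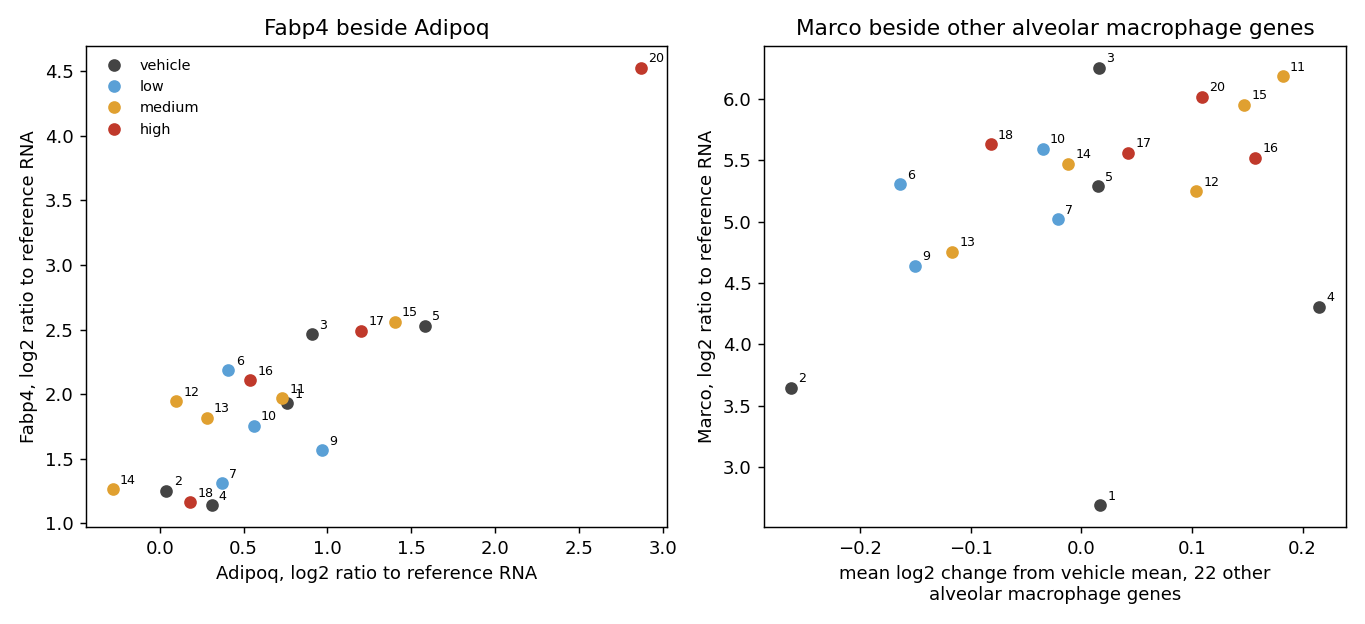
Left, log2 ratio of Fabp4 against that of the adipocyte gene Adipoq; right, log2 ratio of Marco against the mean log2 change from the vehicle mean of 22 other alveolar macrophage genes; each point is 1 mouse, coloured by dose group and labelled with its number. Mouse 20 is highest in both Fabp4 (4.52) and Adipoq (2.87), and vehicle mice 1 and 3 hold the extremes of Marco (2.69 and 6.26).

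Fabp1 was 3.50, 3.36, 3.45, 4.42 and 3.66 in vehicle mice, and 3.55, 3.99, 4.50 and 3.80 at the low dose. The medium-dose mice had 4.77, 3.89, 3.20, 4.18 and 3.67, and the high-dose mice 4.31, 4.45, 3.81 and 3.84. Vehicle mouse 4 stood above its group, and all 4 high-dose mice were above the vehicle median of 3.50. The log2 fold changes were 0.29, 0.26 and 0.42 (SE 0.26, 0.24 and 0.26; limma, adjusted p = 0.849, 0.697 and 0.471), and the scanner software's own ratios turned the medium-dose value to -0.15. The high-dose value ran from 0.04 with those ratios to 0.64 with scaling between arrays. At the low dose Fabp1 was higher than vehicle on all 3 slides, by 0.15 to 0.56. Of 8 other liver and gut genes, Apoa1, Apoa4 and Ttr were above background on 0 arrays, Alb on 5, Vil1 on 15, Serpina1a on 16, Apob on 17 and Lgals4 on 18, and none was called; their part in the Fabp1 values was not tested.

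Ctsk, a lysosomal cysteine protease known from the osteoclast and found in lung macrophages, was the single member whose mice did not overlap with vehicle in some comparison. Vehicle mice had 2.92, 2.89, 3.18, 3.22 and 2.92 and the low-dose mice 2.66, 2.83, 2.62 and 2.66, so that all 4 lay below all 5. Among all probes 1.45% did the same. The log2 fold change was -0.33 (SE 0.16, 95% interval -0.67 to 0; limma, adjusted p = 0.623), and the exact permutation p of 0.0159 was the smallest that 4 against 5 mice can give. The difference was lower on all 3 slides. The medium-dose mice (3.32, 2.78, 2.28, 2.72 and 3.00) and the high-dose mice (2.97, 2.82, 2.47 and 3.26) spread to both sides of vehicle, with log2 fold changes of -0.21 and -0.15 (0.08 for the high dose with median centring).

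Krt79, a keratin that is unusual for a macrophage but abundant in alveolar macrophage RNA of the mouse, was 3.47, 3.79, 3.75, 3.88 and 3.96 in vehicle mice. It was 3.62, 3.70, 3.67 and 3.90 at the low dose, 4.08, 3.93, 3.00, 3.70 and 3.61 at the medium dose, and 3.97, 3.64, 3.35 and 3.33 at the high dose. The groups overlapped, with 2 high-dose mice below all vehicle mice and 1 above. The log2 fold change at the high dose was -0.20 (SE 0.17, 95% interval -0.55 to 0.14; limma, adjusted p = 0.643), and 0.01 with the ratios scaled between arrays.

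Several members tended to be high or low in the same mice. In vehicle mouse 4 the values of Chil3, Mrc1, Itgax, Ctsk and Fabp1 were all the highest of the group, and in vehicle mouse 2 those 5 and Pparg were the lowest. Medium-dose mouse 11 was highest in 6 members and mouse 13 lowest in 7. High-dose mouse 18 was lowest in 6 and mouse 20 highest in 5. After the dose group means were subtracted, 34 of 36 pairs of members had a positive correlation over the 18 mice, and 14 pairs (38.9%) had r above 0.5. Of pairs between a member and one of 14658 other genes, 5.56% did so. The median r was 0.42 among members and 0.03 against other genes. The members share each mouse's lung piece and array, so the pairs are not independent of each other.

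The closest pair was Mrc1 and Ctsk (r = 0.71, rho = 0.60; permutation p within groups 0.00437 and adjusted p = 0.069 over 36 pairs; r = 0.51 without 2 mice). Chil3 and Mrc1 followed with r = 0.69, as did Mrc1 and Fabp1, the 2 probes with a dim reference channel. Krt79 and Fabp1 came next with 0.65. With the 2 mice farthest from the median of the first gene left out, these 3 had r = 0.59, 0.49 and 0.38. Of the 14 pairs above 0.5, 8 were still above it on that footing and 6 were not. No pair passed the adjustment, and 13 of 36 had an unadjusted p under 0.05 (permutation test, 100000 resamples). With the slide means removed as well, 32 pairs were positive and 17 had r above 0.5. Fabp4 and Marco stood at the edge of the group, with a median r to the other members of 0.16 and 0.30, against 0.53 for Ctsk and for Fabp1. Marco and Chil3, the members with the widest vehicle ranges, were uncorrelated (r = 0.00).

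**Figure D4:**
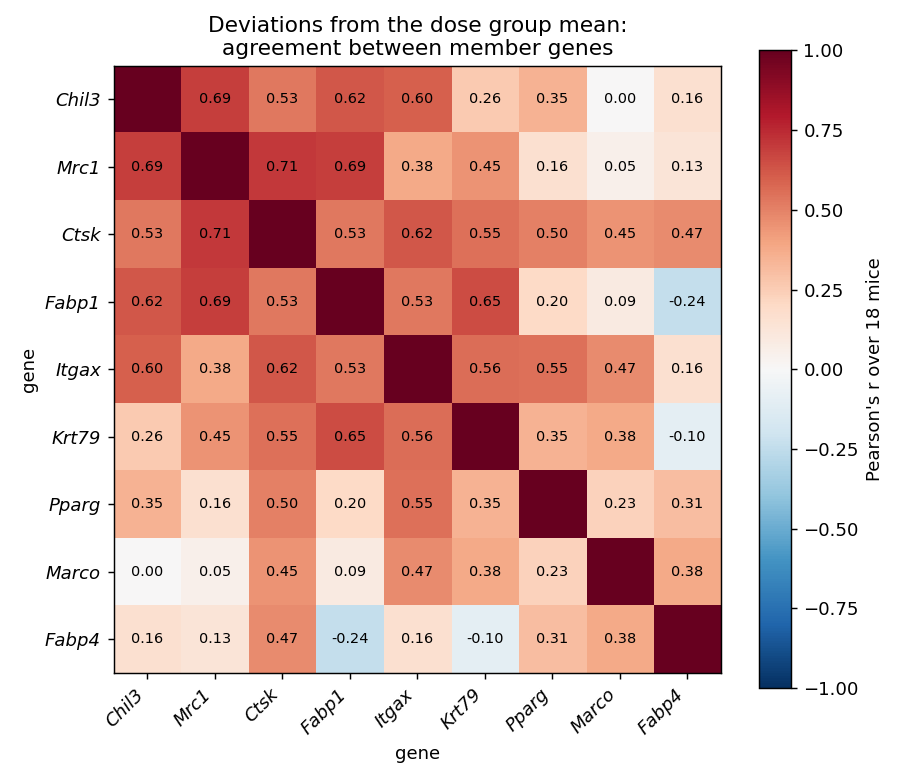
Pearson's r over 18 mice between each pair of the 9 members (rows and columns), after the mean of the dose group was subtracted; red is positive and blue negative. The upper left block holds r up to 0.71 (Mrc1 and Ctsk), Marco and Chil3 are at 0.00, and Fabp4 is negative with Fabp1 and Krt79.

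None of the other alveolar macrophage genes listed was called either. Of 22 further genes typical of these cells, 0 were called at any dose. Among all probes 0.0898%, 0.726% and 1.2% were called at the low, medium and high dose, so 0 of so few genes lies near the share over the array. The same shares belong beside the counts of the lists that follow. At the high dose 13 of the 22 were above and 9 below vehicle with a median log2 fold change of 0.04. At the low dose 6 were above and 16 below, with a median of -0.09. The largest estimates at the high dose were 0.48 for Olr1, a receptor for oxidised LDL, and -0.33 for Car4, a membrane carbonic anhydrase (limma, adjusted p = 0.284 and 0.205). Siglecf, the lectin used to sort these cells, had 0.20 (SE 0.16, adjusted p = 0.616). Bhlhe41, a repressor that supports alveolar macrophage self-renewal, was the single gene of the list with an adjusted p of 0.05 or less, at the medium dose (0.40, SE 0.10, adjusted p = 0.0273, reached by 3.54% of all probes; the change was under 1.5-fold). Of 10 general macrophage genes 0 were called by the brighter probe, with 4 above and 6 below vehicle at the high dose (median -0.05), from 0.28 for Tyrobp to -0.53 for Aif1 (adjusted p = 0.506 and 0.0636), while the second probe of Mpeg1 was called lower (-0.56).

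Of the genes upstream of Pparg and its partners, 0 of 22 were called. Csf2ra, the GM-CSF receptor's alpha chain, had a high-dose log2 fold change of -0.31 (SE 0.09, limma, adjusted p = 0.0577), and Csf2, the gene of GM-CSF itself, -0.11. Bhlhe40, the sister gene of Bhlhe41, passed on p at the high dose (0.58, SE 0.13, adjusted p = 0.0122) and missed 1.5-fold. Its log2 ratios were -1.38, -1.39, -1.09, -1.12 and -1.51 in vehicle mice and -0.80, -0.58, -0.90 and -0.60 at the high dose, with no overlap. Among all probes 3.78% lay wholly above vehicle at that dose. The largest fall was -0.31 for Itgb6, part of an integrin that activates TGF-beta (adjusted p = 0.467).

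Among 20 genes of lipid handling, 1 was called. Dgat2, which makes the last step of triglyceride synthesis, rose at the high dose (log2 fold change 0.76, SE 0.20, limma, adjusted p = 0.0293). Its log2 ratios were -1.18, -0.79, -0.86, -1.12 and -0.51 in vehicle mice and -0.25, -0.18, -0.46 and 0.38 at the high dose, without overlap (so for 3.78% of all probes, higher). Soat1, which esterifies cholesterol, had -0.37 (SE 0.09, adjusted p = 0.0209), short of 1.5-fold. Abcg1, Lpl, Plin2 and Cd36, picked from this list, lay between -0.21 and 0.26 at the high dose and did not pass. Other genes of the list lay outside that range and did not pass either. Abca1 had 0.49, Acsl1 0.34 and Scd1 -0.36 (limma, adjusted p = 0.194, 0.184 and 0.419). At that dose 11 of the 20 were above and 9 below vehicle, with a median of 0.08.

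Of the other scavenger and phagocytic receptors 0 of 17 measured genes were called (Clec7a was not matched). On p alone 3 passed at the high dose, against 4.18% of all probes. Msr1, a class A receptor like Marco, had 0.58 (SE 0.14, limma, adjusted p = 0.0173) and Scarb2 0.37 (adjusted p = 0.0188), while Stab1 had -0.37 (adjusted p = 0.0386). Msr1 was -1.23, -1.50, -0.86, -1.63 and -1.37 in vehicle mice and -1.07, -0.56, -0.57 and -0.77 at the high dose. Its highest vehicle mouse was mouse 3, as for Marco, and its groups overlapped. As a description, deviations of Marco and Msr1 from their group means correlated with r = 0.41 (rho = 0.37, 18 mice). With the 2 mice farthest from the median of Msr1 left out, r was 0.11. Msr1 was above background on 15 arrays, and its second probe gave 0.17.

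Of 20 lysosome and cathepsin genes, the relatives of Ctsk, 0 were called. Tfeb, the regulator of lysosome genes, and the aspartic protease Ctsd passed on p at the high dose with 0.37 and 0.34 (limma, adjusted p = 0.0149 and 0.0423), and the widest estimates were 0.49 for Ctsf and -0.27 for Cd63. Of 14 genes of alternative activation, the programme in which Chil3 and Mrc1 are usually counted, 0 were called. Il4ra, the IL-4 receptor's alpha chain, had -0.43 at the high dose (adjusted p = 0.0219), and Clec10a -0.50 (adjusted p = 0.0645) and Ccl24 0.30 (adjusted p = 0.553) were the widest. Arg1 and Retnla had 0.18 and -0.17.

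In the family of Krt79, 1 of 12 genes was called. Krt15, a keratin of basal epithelium, rose at the medium and high doses (0.68 and 0.87; limma, adjusted p = 0.012 and 0.00229), and the keratin with the lowest estimate at the high dose was Krt18 with -0.24. Fabp5, a fatty acid carrier of the same family as Fabp4 and Fabp1, had a high-dose log2 fold change of -0.15 (SE 0.12, adjusted p = 0.627).

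Genes were called in several lists of markers of other cells. Lyve1, carried by a set of interstitial macrophages and by lymphatic endothelium, rose at the high dose with a log2 fold change of 1.28 (SE 0.26, limma, adjusted p = 0.00515), the 1 gene called of 12 on its list. The fibroblast genes Col1a1, Col1a2, Col3a1 and Dcn fell at the medium and high doses, 4 of 8 on that list. Mmp8 of the neutrophil rose at the high dose (0.98, adjusted p = 0.0157), 1 of 9. Of the endothelial genes Pecam1 and Emcn rose and Gpihbp1 fell, and of the lymphocyte genes Ms4a1 rose at the medium dose. In the lists for dendritic cells (9 genes), alveolar type 2 cells (8) and adipocytes (8), 0 genes were called by the brighter probe, while the second probe of Siglech, a plasmacytoid dendritic cell gene, was called lower (-1.01). At the medium and high doses 8 and 7 of the 8 type 2 genes lay below vehicle (median log2 fold change -0.25 and -0.14). Of the 9 dendritic cell genes 6 and 7 did (-0.09 and -0.21), where 51.3% and 50.8% of all probes lay above. On p alone 2 type 2 genes and 1 dendritic cell gene passed at the high dose, against 4.18% of all probes.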

How the data were processed

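Lung RNA of 18 mice, 1 per two-colour Agilent array, was compared between 4 dose groups taken from the labels. The authors deposited each array's scanner output (Feature Extraction, version 11.0.1.1 per the file headers), which holds spot intensity in both channels and the software's log10 ratios, and a table of normalized log2 ratios. From the deposited median intensity values, without background subtraction, log2(Cy5/Cy3) was computed here, with loess within each array. Control spots and 215 to 307 outlier spots per array had weight 0, and spots of 1 probe were averaged. The study's MAANOVA was not run; limma 3.58.1 (R 4.3.3) stood in for it, as 1 fit of 4 groups, with Benjamini-Hochberg adjustment over 55681 probes. The deposited log10 and log2 ratios served as alternatives. Probes were named through RefSeq accessions (GRCm38.p6): 27235 probes, 20660 genes. Where a gene had several probes, the brightest stood for it. Single genes were tested with two-sided exact permutation tests over mice.

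The members and gene lists were chosen with earlier results of these data known. By rule, all members were named, and of each list the genes called at any dose and the largest rise and fall at the high dose. Siglecf, Fabp5, Csf2, Csf2ra, Arg1, Retnla, Abcg1, Lpl, Plin2, Cd36, Abca1, Acsl1 and Scd1 were named beyond it, with their values known. So were some, but not all, of the genes that passed on p alone. Bach2, Abca3 and Flt3 are among those whose values are not given. The result of 1 list is not reported here. The test was checked on simulated data. Alternatives covered background correction, normalization, filter, the slide as block, the groups in the fit and each mouse left out. The number of arrays limits the precision.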

Additional observations from a re-analysis of the deposited data

Results flagged for a closer look

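Among the 36 sets of values formed by 9 members and 4 groups, 2 held a mouse whose gap to the nearest other mouse was large for the range of its group; chance gives about 1 in 20. Ctsk in low-dose mouse 7 was at a log2 ratio of 2.83, above the next mouse at 2.66. Fabp1 in vehicle mouse 4 was at 4.42, above the next at 3.66.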

How the results depend on the processing

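No paired analysis was possible because the mouse numbers in the labels are unique and no 2 groups share one. Averaging a gene's probes was not run as a separate setting, since each member had 1 probe. The number of members called was 0 in all 4 comparisons under every alternative run, except that with 1 mouse left out at a time it ranged from 0 to 1 at both higher doses, the 1 being Marco without vehicle mouse 3. Marco kept its direction throughout, at 1.1 to 1.55 for the high dose over the alternatives and 0.81 to 1.70 with mice left out.

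No estimate that changed sign was called. With median centring in place of loess, Itgax was 0.08 (medium) and 0.12 (high), Pparg 0.06 (low) and 0.03 (high), Krt79 0.06 (low) and 0.01 (medium), and Ctsk 0.08 (high). With scaling between arrays, Itgax was 0.11 (medium and high) and Krt79 0.04 (medium) and 0.01 (high). With normexp, Itgax at the medium dose was 0.00, and with Cy5 alone it was 0.01 and Fabp4 0.00 (medium). With the scanner software's ratios, Fabp4 was -0.03 and Fabp1 -0.15 (medium). With mice left out, ranges crossed 0 for Chil3 (low -0.05 to 0.62, medium -0.57 to 0.06, high -0.21 to 0.42), Mrc1 (low -0.16 to 0.04), Itgax (medium -0.08 to 0.04, high -0.13 to 0.03), Pparg (low -0.12 to 0.08, medium -0.01 to 0.13), Fabp4 (low -0.34 to 0.01, medium -0.13 to 0.21) and Krt79 (medium -0.21 to 0.06). The cause was not tested. Over the whole array the number of probes called at the high dose was 670, but 80 with median centring and 1075 with the scanner software's ratios.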
